A study of Mus musculus with 10 samples.

Results

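The transcripts described here belong to the machinery of motile cilia, which in the brain beat on the ependymal cells lining the ventricles. 8 genes were followed: Foxj1, Ccdc153, Tmem212, Rsph1, Dynlrb2, Hydin, Meig1 and Ak7. They were picked by name, and every gene probe whose RefSeq accession belongs to one of them was taken, giving 9 probes among 56605 on the array. Of the 8 genes, 7 had a probe bright enough to be tested, among 17597 such genes on the array. Total RNA from hippocampus, per the paper's methods, was hybridised to 1-colour (Cy3) Agilent mouse arrays, with 5 arrays of PGC-1αf/f mice and 5 of nPGC-1α mice. The sample titles instead name neurons, without PGC-1α and with PGC-1α, and were taken as PGC-1αf/f and nPGC-1α in that order. The PGC-1αf/f mice carry a PGC-1α transgene at Rosa26 that is silenced by a floxed stop cassette, and the nPGC-1α mice are PGC-1αf/f Eno2-Cre littermates in which Cre under the neuronal Eno2 promoter removes that cassette and also switches on eGFP. All were labelled as males of 12 weeks on a C57BL/6 background with no surgery named in the labels, and each array was treated as 1 mouse, although the labels do not say which animals gave the tissue.

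Motile cilia are built on a ring of microtubule doublets around a central pair, driven by dynein arms and coordinated by radial spokes. Foxj1 is the transcription factor that switches on the motile cilia programme, and factors of the RFX family act with it through a promoter element called the X-box. In the brain these cilia move cerebrospinal fluid, and they stand on ependymal cells rather than on neurons. How much tissue of the ventricle was dissected with these hippocampi is not given in the sources used here. The choroid plexus, which makes cerebrospinal fluid, lies in the same ventricle and is marked by Ttr, the thyroxine carrier transthyretin.

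Promoter windows were compared because most of the genes below varied together from array to array. The RefSeq table (GRCm38.p6) gave windows from 250 bases before to 50 bases after a transcript start for 6 of the 8 genes, namely Ccdc153, Tmem212, Dynlrb2, Hydin, Ak7 and Meig1, the last with 3 windows. Foxj1 and Rsph1 had none. A core element of the X-box, GTTGCC or GGCAAC on the other strand, was found in the windows of Hydin, Dynlrb2 and Ccdc153, 3 of the 6 genes. By window this was 3 of their 8, while 12.5% of 32817 windows held it. The forkhead core TGTTTAC, or GTAAACA on the other strand, was found for Ak7 only among the 6, in 1 of the 8 windows, against 3.65% of all windows. The match began at position -13 in Hydin, -51 in Dynlrb2, -152 in Ccdc153 and -131 in Ak7, counted from the transcript start, and the pair of motifs overlapped nowhere in these windows. The windows are written 5′ to 3′ with the matched letters in capitals, and that of Tmem212, which had neither motif, is given beside them because its transcript followed Foxj1 most closely.
Hydin, chr8:110266727-110267026, plus strand: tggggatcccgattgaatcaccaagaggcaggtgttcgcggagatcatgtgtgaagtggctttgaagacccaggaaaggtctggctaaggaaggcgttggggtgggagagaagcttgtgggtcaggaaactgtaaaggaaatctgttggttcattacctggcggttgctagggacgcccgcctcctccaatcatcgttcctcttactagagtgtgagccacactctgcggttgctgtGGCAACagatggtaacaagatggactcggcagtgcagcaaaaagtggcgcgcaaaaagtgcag
Dynlrb2, chr8:116504765-116505064, plus strand: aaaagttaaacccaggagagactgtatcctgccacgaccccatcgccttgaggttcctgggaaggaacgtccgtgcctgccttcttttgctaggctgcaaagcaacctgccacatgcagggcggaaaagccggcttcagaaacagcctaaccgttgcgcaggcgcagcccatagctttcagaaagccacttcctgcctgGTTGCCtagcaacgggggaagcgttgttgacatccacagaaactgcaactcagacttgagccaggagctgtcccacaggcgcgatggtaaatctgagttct
Ccdc153, chr9:44240427-44240726, plus strand: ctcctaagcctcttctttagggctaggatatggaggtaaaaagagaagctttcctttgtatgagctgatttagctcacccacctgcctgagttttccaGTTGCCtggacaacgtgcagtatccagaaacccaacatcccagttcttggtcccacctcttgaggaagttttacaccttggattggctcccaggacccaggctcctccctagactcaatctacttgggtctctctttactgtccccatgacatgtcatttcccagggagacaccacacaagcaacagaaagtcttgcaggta
Ak7, chr12:105705732-105706031, plus strand: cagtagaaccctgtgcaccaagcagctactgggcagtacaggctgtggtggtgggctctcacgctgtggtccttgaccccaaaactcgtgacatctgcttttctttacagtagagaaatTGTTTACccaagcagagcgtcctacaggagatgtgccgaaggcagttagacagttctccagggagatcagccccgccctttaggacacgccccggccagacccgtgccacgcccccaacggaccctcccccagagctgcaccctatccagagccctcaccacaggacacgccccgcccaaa
Tmem212, chr3:27896319-27896618, minus strand: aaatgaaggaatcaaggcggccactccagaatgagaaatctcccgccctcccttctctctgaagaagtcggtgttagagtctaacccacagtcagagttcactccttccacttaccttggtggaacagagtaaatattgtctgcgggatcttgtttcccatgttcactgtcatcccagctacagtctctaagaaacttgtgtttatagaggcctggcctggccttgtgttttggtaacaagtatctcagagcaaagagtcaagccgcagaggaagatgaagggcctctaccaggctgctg

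Some facts of the arrays bear on all values below. Levels are log2 processed intensities with 0 at the 75th percentile of the array, which lay at 3882.9 to 5079.6 intensity units in PGC-1αf/f and at 4223.1 to 5253.2 in nPGC-1α. Spots well above background made up 74.5% to 81.5% of the former arrays and 67.2% to 73.4% of the latter. Replicates 1 to 4 lay on slide 1, those of PGC-1αf/f in row 1 and those of nPGC-1α in row 2. Group and row can therefore not be told apart on that slide. The share of spots marked as outliers was 10.5% on control replicate 1, 11.6% on replicate 1 of nPGC-1α, and at most 4.75% on the others. Against the label of male mice, 3 probes of the Y-linked genes Kdm5d and Uty were well above background on only 4 arrays, replicate 1 of PGC-1αf/f with replicates 1, 3 and 5 of nPGC-1α. Ppargc1a, the gene of the transgene, was level between the groups on its tested probe, at 2.20 ± 0.08 (SD, n = 5) in PGC-1αf/f and 2.20 ± 0.11 (SD, n = 5) in the arrays labelled nPGC-1α, with a limma adjusted p of 0.990. Where this probe lies relative to the transgene is not given in the sources used here, so it does not settle the labels, and every direction below rests on them.

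Transcripts of the ependymal programme were detected in these hippocampi. The probes of Foxj1, Ccdc153, Tmem212, Rsph1, Dynlrb2, Meig1 and 1 of 2 Hydin probes were well above background on all 10 arrays. The Ak7 probe was well above background on 4 of 5 PGC-1αf/f and 2 of 5 nPGC-1α arrays and was therefore not tested. The second Hydin probe was well above background on 0 of 10 arrays and is not followed further. The number of arrays, 5 in each group, limits the precision of all comparisons. In whole tissue, fewer ciliated cells and less RNA per ciliated cell cannot be told apart.

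Foxj1, the regulator of the group, had levels of -1.18, 0.18, -0.26, -0.09 and 0.02 on PGC-1αf/f replicates 1 to 5. On nPGC-1α replicates 1 to 5 it had levels of -0.50, -0.25, 0.18, -0.08 and -0.22. PGC-1αf/f replicate 1 lay well below every other array, replicate 2 of the same group and nPGC-1α replicate 3 were highest, and the groups overlapped.

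Rsph1 encodes a protein of the radial spoke head. Its levels were -0.07, 0.68, 0.19, 0.29 and 0.11 on PGC-1αf/f replicates 1 to 5, and -0.27, 0.17, 0.55, 0.17 and -0.07 on nPGC-1α replicates 1 to 5. Replicate 2 of PGC-1αf/f and replicate 3 of nPGC-1α were again the highest arrays, whereas nPGC-1α replicate 1 was the lowest. Hydin encodes a large protein of the central pair apparatus whose loss causes hydrocephalus in mice. Its levels were -5.27, -3.75, -4.31, -4.52 and -4.11 on PGC-1αf/f replicates 1 to 5, and -4.84, -4.51, -4.02, -4.32 and -4.81 on nPGC-1α replicates 1 to 5. Hydin repeated the order of Foxj1 at both ends, with PGC-1αf/f replicate 1 lowest and replicate 2 highest.

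Dynlrb2 encodes a light chain of the dynein motors. On PGC-1αf/f replicates 1 to 5 its levels were -2.39, -0.31, -1.12, -1.14 and -1.68, and on nPGC-1α replicates 1 to 5 they were -1.51, -1.28, -0.34, -1.09 and -1.52. Replicate 2 of PGC-1αf/f and replicate 3 of nPGC-1α stood together above the other 8 arrays, and PGC-1αf/f replicate 1 below them. Ak7 encodes an adenylate kinase of motile cilia. Its measured levels were -7.99, -5.41, -6.13, -6.14 and -6.51 on PGC-1αf/f replicates 1 to 5, and -7.17, -5.88, -5.75, -5.79 and -6.96 on nPGC-1α replicates 1 to 5. The arrays on which Ak7 was not well above background were replicate 1 of PGC-1αf/f with replicates 1, 3 and 5 of nPGC-1α, so the values on these 4 arrays have no firm order.

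Ccdc153 and Tmem212 encode a coiled-coil and a membrane protein that serve as ependymal markers. Ccdc153 had levels of -0.04, 1.71, 0.99, 0.65 and 0.84 on PGC-1αf/f replicates 1 to 5, and of 0.43, 0.97, 1.27, 0.90 and 0.55 on nPGC-1α replicates 1 to 5. Tmem212 had levels of -3.53, -0.88, -1.71, -2.02 and -1.44 on PGC-1αf/f replicates 1 to 5, and of -2.24, -1.71, -1.41, -1.70 and -1.94 on nPGC-1α replicates 1 to 5. For both genes the lowest and the highest array of all 10 were replicates 1 and 2 of the control group. Tmem212 had the widest range of the 7 tested genes, 6.27-fold from its lowest to its highest array, and Meig1 the narrowest, 1.87-fold.

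Meig1, known from the shaping of the sperm head and also expressed in ciliated tissue, behaved differently. Its levels were 0.14, 0.42, -0.23, -0.32 and -0.16 on PGC-1αf/f replicates 1 to 5, and -0.48, -0.24, -0.28, -0.21 and -0.19 on nPGC-1α replicates 1 to 5. PGC-1αf/f replicate 1, the lowest array for 5 of the 7 tested genes, was second highest for Meig1.

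**Figure D1:**
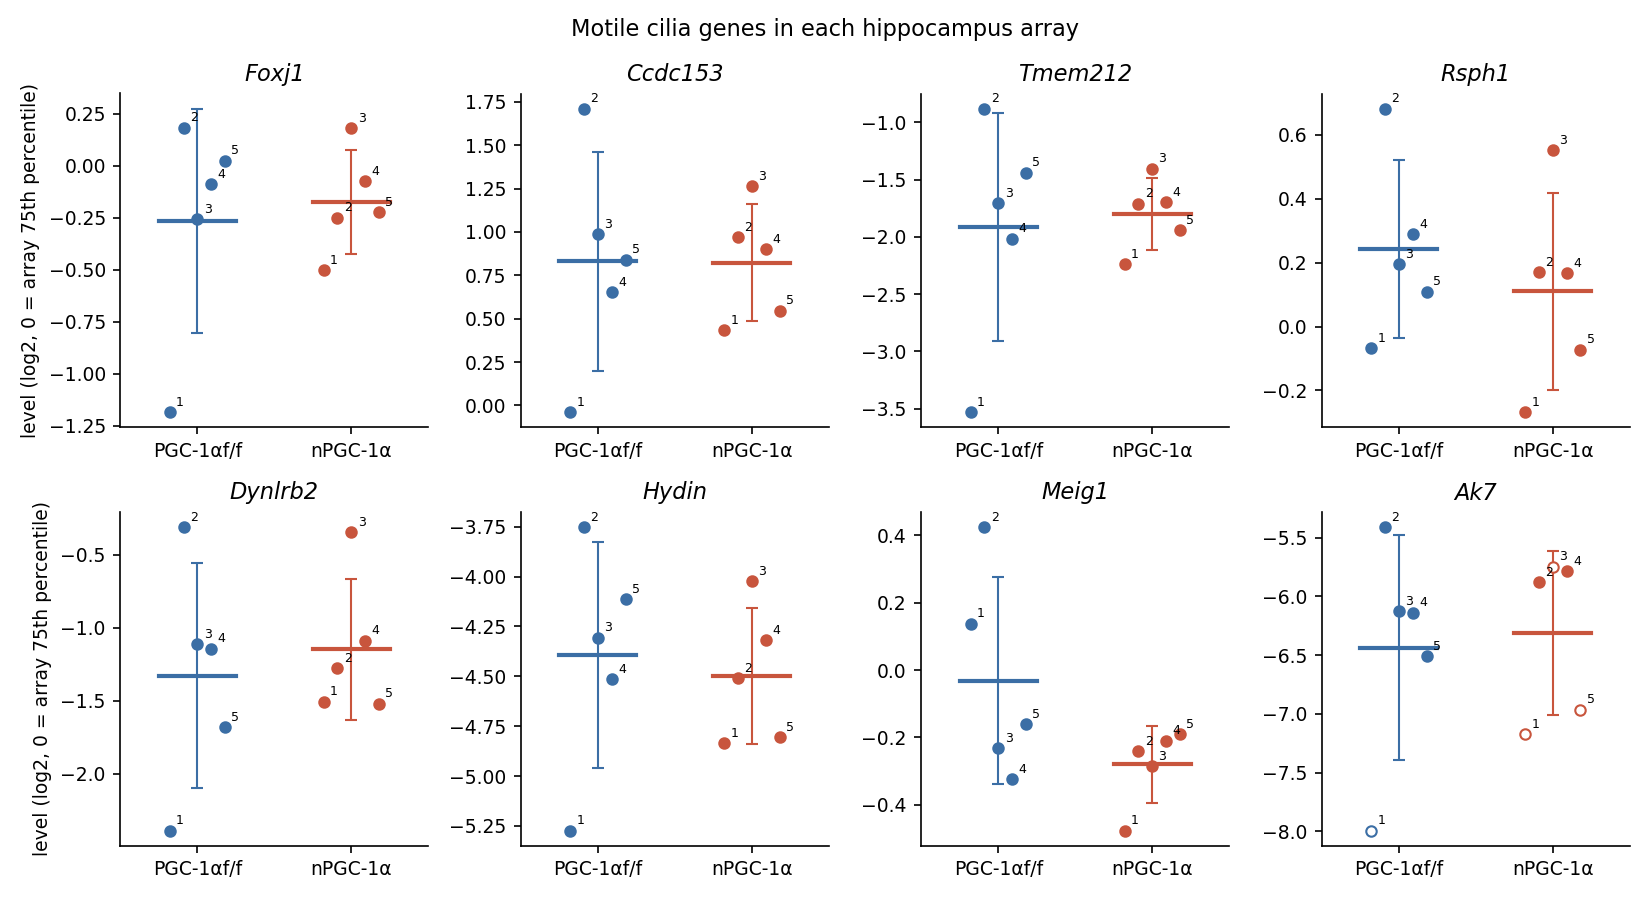
Level of each motile cilia gene on each array (y axis, log2 with 0 at the 75th percentile of the array, a separate scale per gene) for PGC-1αf/f (blue) and nPGC-1α (red), with lines at the group mean, bars of 1 SD (n = 5), replicate numbers beside the points and open points where the probe was not well above background. PGC-1αf/f replicate 2 is the highest array in all 8 panels and PGC-1αf/f replicate 1 the lowest for 5 of the 7 tested genes.

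Between the groups, 0 of the 7 tested genes passed the limma test across all probes at an adjusted p below 0.05, where 1 of 39142 probes (0.00255%) did. At an unadjusted p below 0.05 the count was also 0 of 7, where 11.9% of all probes passed, 3.39% higher and 8.52% lower in nPGC-1α. By the exact Mann-Whitney test 0 of 7 passed without adjustment, where 2950 of 39142 probes did. After adjustment 0 of all 39142 probes passed that test, so its adjusted count says nothing particular about the 7 genes. The groups overlapped for all 7 genes, while among probes with 10 values 2.74% had groups that did not overlap. The measured differences, nPGC-1α minus PGC-1αf/f, were above 0 for 3 genes and below 0 for 4, with a median of -0.01 against -0.04 over all probes.

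Dynlrb2 had the highest difference, 0.18 (SE 0.35) with a 95% confidence interval of -0.60 to 0.96. The difference was 0.11 (SE 0.40) for Tmem212, with an interval of -0.78 to 1.01. For Foxj1 it was 0.09 (SE 0.24), with an interval of -0.43 to 0.61. All 3 intervals cross 0, and those of Tmem212 and Dynlrb2 are the widest of the 7. Ccdc153 differed by -0.01 (SE 0.28), with an interval of -0.63 to 0.61, Hydin by -0.11 (SE 0.26), with an interval of -0.68 to 0.47, and Rsph1 by -0.13 (SE 0.17), with an interval of -0.51 to 0.25. Meig1 was nearest to a call, at -0.25 (SE 0.14) with an interval of -0.56 to 0.06, a limma adjusted p of 0.517 and an exact permutation p of 0.159 where the smallest possible is 0.00794. 0 of 5 nPGC-1α arrays lay above the control mean of Meig1, which its values of 0.14 and 0.42 on PGC-1αf/f replicates 1 and 2 raised. The untested Ak7 differed by 0.13 between the group means of its measured levels.

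The median difference changed sign with single control arrays. Without PGC-1αf/f replicate 1 the median difference over the 7 genes was -0.21, and without PGC-1αf/f replicate 2 it was 0.20. Spread was larger in PGC-1αf/f than in nPGC-1α for 6 of the 7 genes, with SDs of 0.99 and 0.31 for Tmem212 and of 0.28 and 0.31 for Rsph1, the exception. These are not separate observations, since PGC-1αf/f replicate 2 was the highest array for all 7 genes and replicate 1 the lowest for 5. The share over all probes is not given here.

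**Figure D2:**
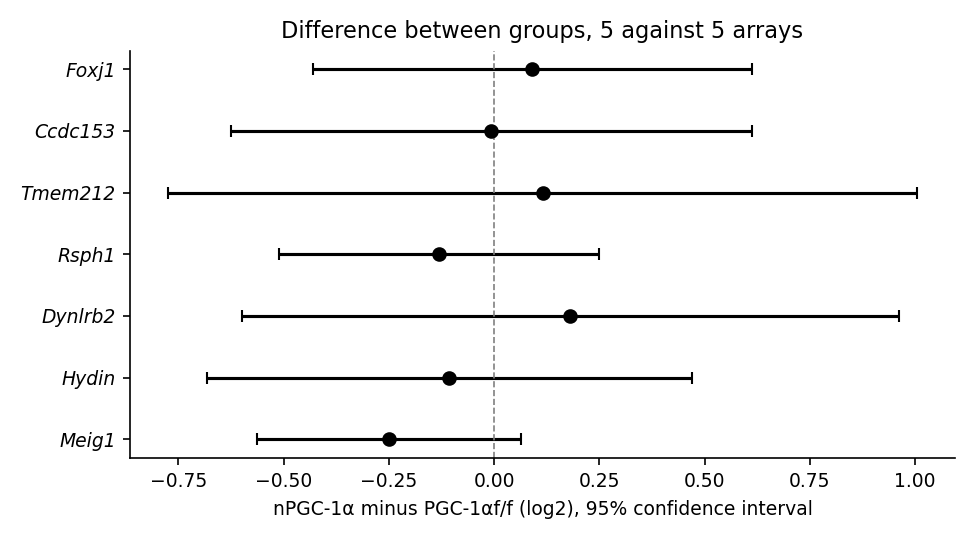
Difference between the group means of each tested gene (x axis, log2, nPGC-1α minus PGC-1αf/f; points) with the 95% confidence interval of the limma fit (bars), 5 against 5 arrays. All 7 intervals cross 0, from the narrowest, that of Meig1, to the widest, that of Tmem212.

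Across the 10 arrays the tested genes other than Meig1 varied together. The mean level of the 7 tested genes, each centred over the arrays, was -0.78, 0.71, 0.07, -0.03 and 0.07 on PGC-1αf/f replicates 1 to 5, and -0.36, 0.01, 0.41, 0.08 and -0.19 on nPGC-1α replicates 1 to 5. PGC-1αf/f replicate 2 was the highest array for 7 of the 7 tested genes, nPGC-1α replicate 3 was among the highest 2 for 6, and nPGC-1α replicate 1 among the lowest 2 for 6. With quantile normalisation PGC-1αf/f replicate 2 was highest for 4 of the 7 tested genes and replicate 1 lowest for 5, and these remained the arrays with the highest and lowest mean level. The lowest mean levels, on replicate 1 of each group, went with the highest shares of outlier spots given above, and the part of spot quality was not tested. With quantile normalisation the mean level on nPGC-1α replicate 1 was 0.07.

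Over the 10 arrays Tmem212 followed Foxj1 most closely, with a Pearson r of 0.954 (permutation p 2.2e-04) and a Spearman rho of 0.879 (permutation p 0.00177). Hydin had an r of 0.905 (permutation p 1.2e-04) and a rho of 0.842, Ccdc153 an r of 0.854 (permutation p 0.00152) and a rho of 0.685, and Dynlrb2 an r of 0.837 (permutation p 0.00207) and a rho of 0.624. Rsph1 had an r of 0.696 (permutation p 0.0247) and a rho of 0.648, and Meig1 an r of -0.04 (permutation p 0.901) and a rho of 0.236. After Benjamini-Hochberg adjustment over all 33999 probes, 0 of these 6 genes and 0% of all probes passed, with adjusted permutation p-values from 0.275 to 0.977. The 100000 permutations gave no permutation p below 1.0e-05, at which 1 probe alone could not pass over so many probes. Without adjustment 5 of 6 passed with a positive r, against 2.42% of all probes. Leaving out the 2 arrays farthest from the median of Foxj1, replicate 1 of each group, gave an r of 0.765 for Tmem212, 0.835 for Hydin, 0.688 for Ccdc153, 0.690 for Dynlrb2, 0.797 for Rsph1 and 0.504 for Meig1. These are also the arrays with the most outlier spots, and without them, over 8 arrays, r was lower for 4 of the first 5 genes and higher for Rsph1. Within slide 1, which held 8 arrays, r lay between 0.780 for Rsph1 and 0.967 for Dynlrb2 among the same 5 and was -0.04 for Meig1. Slide 2 held 1 array of each group and gave no value.

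Among the 15 pairs of the 6 tested genes other than Meig1, r had a median of 0.854 and a range of 0.679 to 0.954, while over all pairs of probes the median was 0.048. With quantile normalisation the median over the 15 pairs was 0.749 and the lowest 0.294. Meig1 had a median r of 0.172 with the other 6 genes, and of 0.695 without PGC-1αf/f replicate 1, the array on which it stood high and most of them stood low. Without PGC-1αf/f replicates 1 and 2 this median was 0.442, with a lowest value of -0.07. For Ak7, r with Foxj1 was 0.874 over the 10 arrays and 0.337 over the 6 on which it was well above background.

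**Figure D3:**
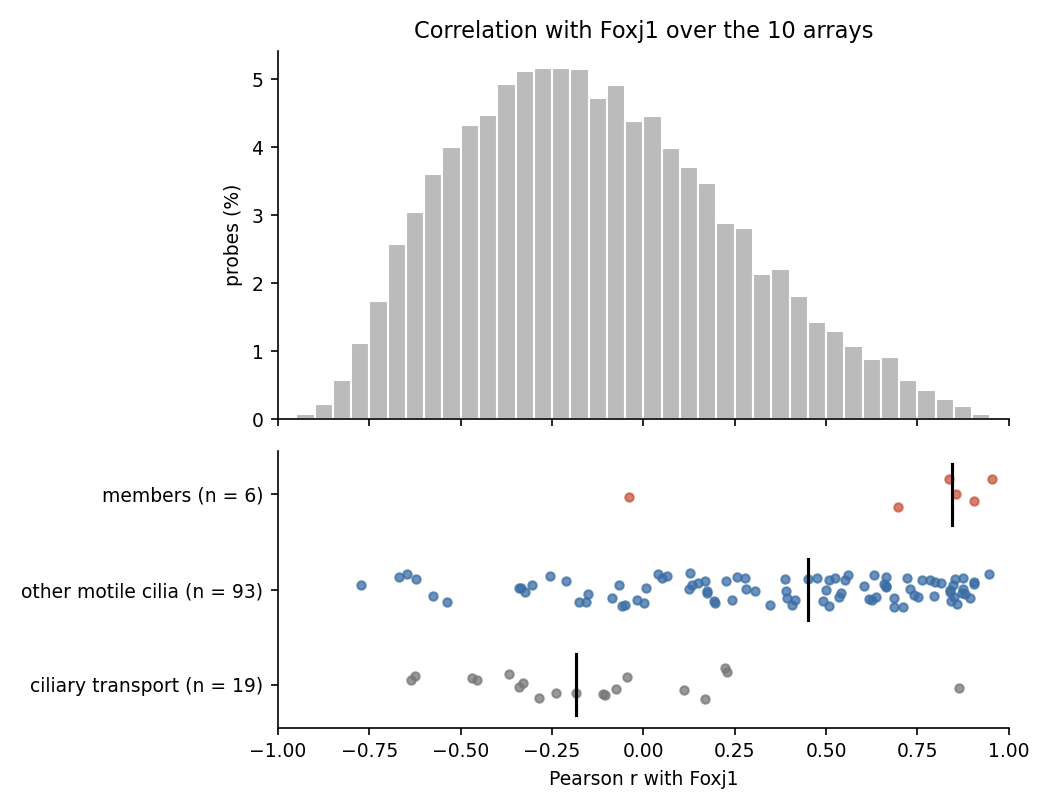
Pearson r with Foxj1 over the 10 arrays (x axis) for all probes with 10 values (upper panel, grey bars, share of probes in percent) and for single genes of 3 lists (lower panel, points with random vertical scatter, black line at the median). Of the 6 other members, 5 lie at 0.696 or above and Meig1 at -0.04.

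Other genes of motile cilia were read from fixed lists of regulators, dynein arms, their assembly factors, radial spokes, central pair, nexin links, microtubule inner proteins and further axonemal genes. Of 118 list entries, 109 were on the array and 100 were tested. Their difference between the groups passed the adjusted threshold for 0 of 100 and the unadjusted one for 3, 1 higher and 2 lower in nPGC-1α, with a median of -0.06, where 3.39% of all probes passed as higher and 8.52% as lower. The higher gene was Efcab6, an inner protein of the doublet microtubules, at 0.58 (SE 0.18, limma adjusted p 0.25), whose groups did not overlap, as for 2.74% of probes with 10 values. The lower genes were Dnah6, a dynein heavy chain, at -0.42 (SE 0.18, limma adjusted p 0.402), and Dnaaf1, a dynein assembly factor, at -0.29 (SE 0.13, limma adjusted p 0.417). With Foxj1, Efcab6 had an r of 0.525 but a rho of -0.20, Dnah6 an r of 0.174 and a rho of 0.127, and Dnaaf1 an r of -0.336 and a rho of -0.04.

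The array pattern of the members extended to many of these genes. Over the 93 listed genes with 10 values, the mean level had an r of 0.967 and a rho of 0.915 with the mean level of the members, as a description over 10 shared arrays. The median r of these genes with Foxj1 was 0.449, where that of all probes was -0.16. By list, r with the mean level of the members was 0.977 for the microtubule inner proteins, 0.968 for the dynein arms, 0.874 for the central pair, 0.849 for the nexin links, 0.815 for the dynein assembly factors and 0.419 for the regulators, and 0.544 for the choroid plexus list. The radial spoke list, with 3 genes, had an r of -0.648, and the list of ciliary transport genes, which primary cilia of all cells also use, an r of -0.541 over 19 genes. The mean level of the transport genes stayed between -0.05 and 0.13 on every array. Between the groups 0 of 27 tested transport genes passed the unadjusted threshold, where 11.9% of all probes did.

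The genes with the brightest probes of these lists differed widely in their r with Foxj1. Mcidas, a regulator of multiciliated cells, had an r of -0.646 with Foxj1, Rsph3b, a radial spoke protein, of -0.774, Cfap20, an inner junction protein, of -0.304, and Ccdc181 of -0.323. Dnah9, an outer arm dynein heavy chain, had an r of 0.537, and Dnaaf2, a dynein assembly factor, of 0.850. Cfap74, Ccdc39 and Kif3a had fewer than 10 values and no r, and the differences between groups of these 9 genes ran from -0.24 for Dnah9 to 0.05 for Dnaaf2, with limma adjusted p-values of 0.63 to 0.890.

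A search of all 14888 genes with 10 values gave the patterns nearest to the mean level of the 7 members. The nearest 8 outside the members were Tctex1d4 (r 0.978), 1700024G13Rik (r 0.970), Dnali1 (r 0.968), Tsnaxip1 (r 0.967), Ccdc121 (r 0.966), Fam166c (r 0.966), Lrrc74b (r 0.966) and C230072F16Rik (r 0.963), each over 10 arrays. Dnali1, a light intermediate chain of the axonemal dynein arms, was the only 1 of the 8 in the lists. Their ranges were wide, from 1.73 on the log2 scale for Dnali1 to 3.26 for 1700024G13Rik, and their limma adjusted p-values between groups lay between 0.845 and 0.996. Of the 100 nearest genes, 23 were in the motile cilia lists, which is 24.7% of the 93 listed genes ranked. Listed genes made up 0.625% of all genes ranked. From the choroid plexus list 0 were among the 100, but only 15 of its genes had 10 values, too few for that count to say anything particular. An r above 0.8 was reached by 26.9% of the listed genes, by 0.954% of all genes and by 1 of these 15 choroid plexus genes, Calml4 (r 0.825), named after its value was seen.

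Ttr had levels of -1.72, 1.16, -0.71, 2.54 and -3.71 on PGC-1αf/f replicates 1 to 5. On nPGC-1α it had levels of -2.77 on replicate 1, -2.19 on replicate 2, -0.73 on replicate 4 and -1.98 on replicate 5. On replicate 3 the spot was marked as an outlier and left out, and read 2.78 when it was kept. All these levels come from the tested Ttr probe. A second Ttr probe was brighter, with means of 2.67 over 4 PGC-1αf/f arrays and 2.18 over 2 nPGC-1α arrays. It spanned only 8.54-fold over its 6 arrays, and its group means differed by -0.49. Its nPGC-1α values were too few for a test. The tested Ttr probe spanned 76.3-fold over the 9 arrays. Its difference between groups was -1.43 (SE 1.09, limma adjusted p 0.628) on 5 and 4 arrays.

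Over these 9 arrays the members had Pearson r with Ttr of 0.304 for Foxj1, 0.360 for Ccdc153, 0.199 for Tmem212, 0.677 for Rsph1, 0.588 for Dynlrb2, 0.299 for Hydin and 0.273 for Meig1. Spearman rho was 0.750 for Rsph1 and 0.667 for Dynlrb2 and between 0.083 and 0.367 for the other 5. Rsph1 alone passed without adjustment (exact permutation p 0.0467), 1 of 7 genes against 3.58% of all probes, and 0 of 7 passed after adjustment over 34064 probes, where 0% of probes did. With 362880 permutations of 9 arrays, 1 probe alone could not have passed this adjustment. Leaving out the 2 arrays farthest from the median of Ttr, PGC-1αf/f replicates 4 and 2, gave an r of 0.379 for Rsph1, 0.365 for Dynlrb2 and -0.12 for Foxj1. Within slide 1, with 7 arrays, r was 0.741 for Rsph1 and 0.568 for Foxj1.

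The mean level of the members had an r of 0.413 and a rho of 0.267 with Ttr over 9 arrays, and no test was run on it. Without those 2 arrays r was 0.0746 over 7 arrays, too few to settle whether the members follow Ttr. Left out alone, replicate 4 raised r to 0.570 and replicate 2 lowered it to 0.161, and leaving out extremes also narrows the range of Ttr. With quantile normalisation r was 0.171 and rho turned to -0.23, with normexp background correction r was 0.161 and rho -0.20, and the other Ttr probe gave an r of 0.252 and a rho of -0.03 over 6 arrays. Other settings gave a higher r, 0.522 with the authors' log2 values and 0.520 with outlier spots kept, each over 10 arrays. Within slide 1 it was 0.532 over 7 arrays. With outlier spots kept, the other Ttr probe gave an r of 0.377 over 10 arrays. PGC-1αf/f replicate 4 had the highest Ttr of the 9 and a member mean level of -0.03, and PGC-1αf/f replicate 5 the lowest Ttr and a member mean level of 0.07. On replicate 2 of PGC-1αf/f and replicate 3 of nPGC-1α, in contrast, both were high.

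**Figure D4:**
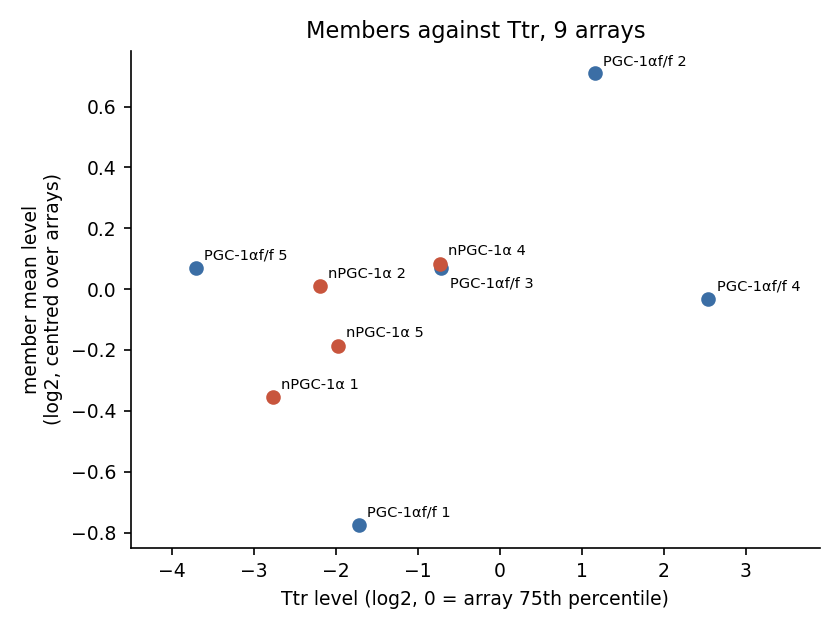
Mean level of the 7 tested motile cilia genes (y axis, log2, each gene centred over the 10 arrays) against the Ttr level (x axis, log2 with 0 at the 75th percentile of the array) on the 9 arrays with a Ttr value, PGC-1αf/f in blue and nPGC-1α in red. PGC-1αf/f replicates 4 and 5, at opposite ends of Ttr, have member mean levels of -0.03 and 0.07.

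Markers of neighbouring tissue moved on some of the same arrays. The choroid plexus list held 20 genes, with 17 tested and 0 past the unadjusted threshold between groups, where 11.9% of all probes passed. Its mean level was 2.25 on nPGC-1α replicate 3, 1.30 on PGC-1αf/f replicate 4 and 0.68 on PGC-1αf/f replicate 2, and lay between -0.95 and -0.34 on the other 7 arrays. The log2 of its summed intensity ran from 1.59 to 3.43 in PGC-1αf/f and from 1.67 to 4.30 in nPGC-1α, while that of the 7 members ran from 1.92 to 3.13 and from 2.07 to 2.82. The medial habenula list (5 of 6 genes tested), for a nucleus beside the ventricle, had a mean level of 1.29 on PGC-1αf/f replicate 2, the array highest in the members, and between -0.45 and 0.32 on the others. Without the 2 arrays highest in choroid plexus markers the median difference of the members was -0.16, again with 0 of 7 past the unadjusted threshold, and the part of dissection in the array pattern was not tested. Of the 4 arrays with Y-linked transcripts, replicate 1 of each group and nPGC-1α replicate 5 had the 3 lowest member mean levels and nPGC-1α replicate 3 the second highest. With the class of Y-linked transcripts as a block the median difference was 0.21, with 0 of 7 past the unadjusted threshold.

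**Figure D5:**
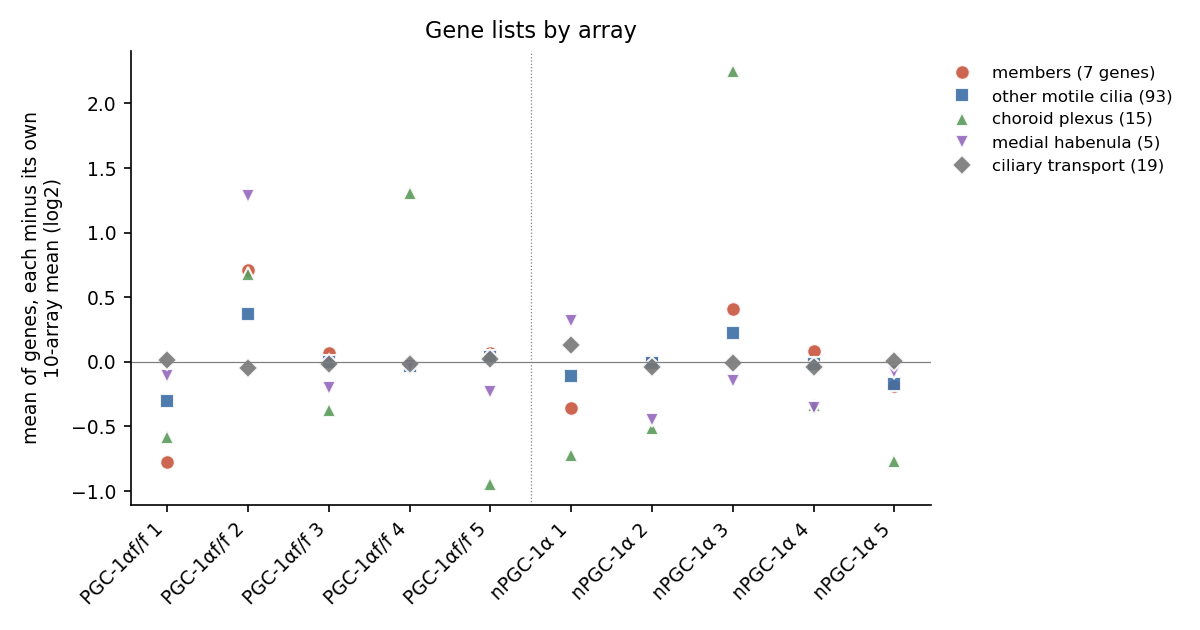
Mean level of 5 gene lists on each array (y axis, log2, each gene minus its own mean over the 10 arrays), with PGC-1αf/f on the left and nPGC-1α on the right of the dotted line. Members and other motile cilia genes are highest on PGC-1αf/f replicate 2 and lowest on PGC-1αf/f replicate 1, the choroid plexus list is highest on nPGC-1α replicate 3, and the ciliary transport list stays between -0.05 and 0.13.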

How the data were processed

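Hippocampal RNA was measured on 10 Agilent arrays with Cy3 label, 5 of PGC-1αf/f and 5 of nPGC-1α. They were grouped and numbered by their titles, which say neuron without or with PGC-1α. The deposited scanner files hold spot intensity values that, per the file headers, the authors extracted with Agilent Feature Extraction 11.5.1.1, which subtracted background and detrended each array without scaling between arrays. Per the file headers, other columns hold 0 or 1 marks of outliers, saturation (0 spots) and signal well above background. The authors also deposited a table of log2 values for 41606 probes whose scaling is not given in the sources used here. It had median values of 9.92 to 9.93 per array, correlated at 0.9987 or more with the scanner values of the same array, and served as an alternative.

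Here the processed intensity of each gene spot was put on the log2 scale and the 75th percentile of all gene spots of the array was subtracted. Outlier spots were left out and spots of a probe averaged. Probes well above background on all arrays with values of at least 1 group, with at least 3 values per group, were kept, which left 39142 probes, 34000 of them with 10 values. Groups were compared by a linear model with moderated variances (limma 3.58.1 under R 4.3.3, two-sided) with Benjamini-Hochberg adjustment over all kept probes, and all adjusted p-values between groups are from this fit. Where a gene had several tested probes, the brightest stood for it. Correlations over arrays used 100000 permutations (10 arrays) or all permutations (9 arrays), two-sided, adjusted over all probes with the needed values. Symbols came from RefSeq accessions (GRCm38.p6), which named 59.7% of 56605 probes. The scripts were tested on simulated data. P-values measure the spread between these arrays.

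The members and lists were chosen with earlier results of these data known. The text names the members, Ttr, the motile cilia genes with the lowest unadjusted p below 0.05 (at most 10), the brightest gene of each list (1 of them is not reported here) and the 8 genes nearest to the member mean level. Tried alternatives were other scalings, background correction, filters, dim values, outlier spots, slide, replicate and Y-linked class as blocks, array weights, the other probes, the exact Mann-Whitney test and leaving out arrays. Leaving out the 2 arrays with the most outlier spots and using the other Ttr probe with outlier spots kept were added after seeing the data.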

Additional observations from a re-analysis of the deposited data

Results flagged for a closer look

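In 5 of the 58 sets of 4 or 5 values examined, 1 array lay far from the rest of its group by Dixon's criterion at the 95% level, and chance marks about 1 in 20 such sets, here about 2.9. None of them was a motile cilia gene of the 8 or their mean level. On PGC-1αf/f replicate 2 the mean level of 3 further ependymal genes (Mia, Rarres2, Cd24a) was 0.47, with the others between -0.22 and -0.05, and that of the medial habenula genes 1.29, with the others between -0.24 and -0.03. On nPGC-1α replicate 3 the mean level of the choroid plexus genes was 2.25, with the others between -0.76 and -0.34. On nPGC-1α replicate 1 the mean level of the 3 radial spoke genes was 0.20, with the others between -0.02 and 0.02, and that of the ciliary transport genes 0.13, with the others between -0.04 and 0.01.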

How the results depend on the processing

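0 of the 7 tested genes passed the adjusted threshold under any alternative run, and the lowest limma adjusted p of any of them over 25 alternatives was 0.318. The count at an unadjusted p below 0.05 was 0 except without PGC-1αf/f replicate 4, where it was 1 (Meig1, lower). The count stayed at 0 to 1 over the arrays left out in turn. The median difference over the 7 genes moved by less than 1 SD of the member mean level throughout, from -0.21 to 0.21. Taking the mean of all tested probes of a gene could not move it, since each of the 7 had only 1 tested probe. Differences of Meig1 and Rsph1 kept their sign under all alternatives, and Meig1 ran from -0.32 to -0.12. Signs turned for the other 5. Ccdc153 was 0.044 with quantile normalisation, 0.0072 with the median of the array as scale, 0.042 with normexp background correction, 0.065 with slide 1 alone, 0.21 with the Y-linked class as a block and 0.0185 with array weights, and ran from -0.22 to 0.21 over the arrays left out in turn. Foxj1 was -0.058 and Tmem212 -0.18 without the 2 arrays with the most outlier spots, and Tmem212 -0.0087 without the 2 arrays highest in choroid plexus markers. Hydin was 0.041 with slide 1 alone and 0.10 with the Y-linked class as a block. Over the arrays left out in turn, Foxj1 ran from -0.14 to 0.20, Tmem212 from -0.29 to 0.37, Dynlrb2 from -0.084 to 0.44 and Hydin from -0.33 to 0.054.

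The mean level of the members had an r with Ttr of 0.0746 without the 2 arrays farthest from the median of Ttr, 0.171 with quantile normalisation and 0.520 with outlier spots kept, and from 0.161 to 0.570 over the arrays left out in turn. The labels do not say that replicate numbers pair the arrays. Same-numbered arrays had correlations of their deviations of 0.078 to 0.356, above 0.1 for 4 of 5 pairs. Those numbered 1 to 4 all lay on slide 1, where equal numbers shared a column and the groups lay in different rows. Those numbered 5 lay on slide 2. Not every array correlated best with its own number, so the numbers were not used as pairs. With a replicate block 0 member genes passed either threshold, the median difference was -0.01, and 6486 of 39142 probes passed an unadjusted p below 0.05 against 4662 without it. The cause of these changes was not tested.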

Other observations

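Lists of other hippocampal cell types were read beside the cilia genes. At the unadjusted threshold 0 of 8 astrocyte, 0 of 6 neuron, 0 of 5 oligodendrocyte, 0 of 4 endothelial, 0 of 6 leptomeningeal and 1 of 4 microglial genes differed between the groups, and 0 of them passed the adjusted one. Over all probes 11.9% passed the unadjusted threshold, 8.52% as lower, and lists of 4 to 8 genes are too short to set apart from that share. The microglial gene was Tmem119, lower in nPGC-1α, named after its value was seen. Over the 10 arrays the mean level of the astrocyte list had an r of -0.486 with that of the motile cilia members, the neuron list of -0.364, the oligodendrocyte list of 0.493, the endothelial list of -0.217 and the leptomeningeal list of -0.0284, as descriptions with 3 to 6 genes a list.

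The genes with the brightest probes of these lists differed little between the groups. The difference was -0.11 for Aldoc (astrocytes), -0.09 for Camk2a (neurons), 0.09 for Flt1 (endothelium), -0.26 for Dcn (leptomeninges) and -0.14 for Csf1r (microglia). It was -0.05 for Vim among the further ependymal genes, -0.05 for Enpp2 in the choroid plexus list and 0.02 for Nwd2 in the medial habenula list. Their limma adjusted p-values lay between 0.487 and 0.944.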
